A study of Mus musculus with 4 samples.

Results

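Natural killer cells were chosen from the cells of 4 single-cell RNA libraries by their own measured transcripts, and 593 of the 13569 cells that passed the quality limits, or of the 16289 barcodes deposited, met the rule. A cell was kept when it had at least 200 genes and at most 10% mitochondrial molecules. It then needed at least 2 unique molecular identifiers (UMIs, each standing for 1 captured transcript) summed over Ncr1, Klrb1c, Klra8 and Eomes, no UMI of the T cell receptor genes Cd3d, Cd3e and Cd3g, at most 1 UMI of the macrophage genes C1qa, C1qb and C1qc, and under 1% of its UMIs from the neutrophil genes S100a8 and S100a9. These genes made the selection, so their levels are given as a description and were not tested. The libraries held immune cells that had infiltrated brain tumours of C57BL/6 mice at the stage when the animals showed symptoms, in a genetically engineered glioma model. Tumours of 2 libraries carried wild-type isocitrate dehydrogenase 1 (wtIDH1) and tumours of the other 2 the mutant enzyme (mIDH1), and no treatment is named for either group. The labels do not say whether the libraries came from separate animals, how the immune cells were enriched, which other alleles the tumours of both groups carried, or the age and sex of the mice, so every p-value measures only the spread between these libraries. The NK cells numbered 224 and 154 in wtIDH1 replicates 1 and 2, and 88 and 127 in mIDH1 replicates 1 and 2.

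Natural killer (NK) cells are innate lymphocytes that kill stressed, infected or transformed cells without a rearranged antigen receptor. A balance of activating and inhibitory surface receptors decides whether they fire, and they kill by releasing perforin (Prf1), which forms pores, and granzymes such as Gzma and Gzmb, proteases that enter through them. In the mouse they mature from cells that carry the surface protein CD27 towards cells that carry the integrin CD11b (Itgam) and then the inhibitory receptor KLRG1, under the transcription factors Eomes, T-bet (Tbx21) and Zeb2. Related innate lymphocytes of tissues, the type 1 innate lymphoid cells, share Ncr1 and Klrb1c but carry other integrins such as Itga1.

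The 250 bases before the start of 4 genes that define these cells are shown because these genes mark the class, and because Prf1 and Gzma also separated its less and more mature cells. They are RefSeq sequences of GRCm38.p6, written 5′ to 3′ on the strand of the gene. Capitals mark each match, on either strand, to TGTGGT, the core that Runx factors bind (ACCACA on the opposite strand), or to AGGTGT, the core of the T-box motif bound by Eomes and T-bet (ACACCT on the opposite strand).
Ncr1 (chr7:4337465-4337714, plus strand): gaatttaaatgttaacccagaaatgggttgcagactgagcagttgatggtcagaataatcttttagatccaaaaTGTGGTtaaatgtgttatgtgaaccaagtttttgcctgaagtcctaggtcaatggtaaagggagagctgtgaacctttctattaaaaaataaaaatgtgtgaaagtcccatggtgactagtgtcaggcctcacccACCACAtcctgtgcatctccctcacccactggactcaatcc
Klrb1c (chr6:128788642-128788891, minus strand): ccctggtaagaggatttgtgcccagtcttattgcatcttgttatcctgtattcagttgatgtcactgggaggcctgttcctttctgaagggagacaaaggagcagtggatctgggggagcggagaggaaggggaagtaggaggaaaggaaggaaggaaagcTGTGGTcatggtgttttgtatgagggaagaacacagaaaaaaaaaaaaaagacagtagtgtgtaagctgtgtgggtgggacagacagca
Prf1 (chr10:61297586-61297835, plus strand): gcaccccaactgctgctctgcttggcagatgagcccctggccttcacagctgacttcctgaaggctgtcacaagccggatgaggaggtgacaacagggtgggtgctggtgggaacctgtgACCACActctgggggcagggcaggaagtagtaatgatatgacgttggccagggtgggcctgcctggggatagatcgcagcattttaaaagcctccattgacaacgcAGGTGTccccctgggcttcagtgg
Gzma (chr13:113100982-113101231, minus strand): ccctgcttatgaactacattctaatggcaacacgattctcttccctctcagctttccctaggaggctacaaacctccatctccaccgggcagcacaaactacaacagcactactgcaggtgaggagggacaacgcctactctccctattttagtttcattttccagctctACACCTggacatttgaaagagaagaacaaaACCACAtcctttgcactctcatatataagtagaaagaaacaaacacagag
Ncr1, the gene of the activating receptor NKp46, held TGTGGT at 176 and at 41 bases before the start shown. From a second RefSeq start of Ncr1, the same matches lay at 185 and 50 bases. Klrb1c, the gene of the NK1.1 antigen, held it at 89 bases, Prf1 at 130 bases and Gzma at 50 bases before the start. AGGTGT stood 24 bases before the start of Prf1 and 80 bases before that of Gzma. Windows of the same length before 32851 RefSeq starts held TGTGGT in 14.0% and AGGTGT in 11.8%, so either core is common. The promoter of Eomes held neither. A match is a string of letters and not a measured binding site.

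The libraries differed in depth and in what else the NK cells carried. The deposited matrices held between 20908476 and 29849183 UMIs per library. Median depth per NK cell was 2792.5 and 2565 UMIs for wtIDH1 and 3715 and 3528 for mIDH1, and the sums over NK cells were 722424, 463657, 422159 and 580061 UMIs in the order wtIDH1 1 and 2, mIDH1 1 and 2. Between 6 and 25 barcode sequences were shared by each pair of libraries, and none of them was an NK cell in both. Neutrophil-rich cells, with 1% or more of their UMIs from S100a8 and S100a9, made up 2.20% and 4.03% of the wtIDH1 cells and 23.2% and 45.8% of the mIDH1 cells.

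Of the 593 NK cells, 3 stood apart by size, all in mIDH1 libraries. The barcode in mIDH1 replicate 1 had 61990 UMIs, which was 14.7% of all NK UMIs of that library. It entered through 3 UMIs of Eomes, and it held no UMI of Gzma, Prf1 or Nkg7 and none of the leukocyte gene Ptprc, but 10 of Nes, which encodes the progenitor and glioma filament nestin, and 56 of the proliferation gene Mki67. One of the pair in mIDH1 replicate 2 had 61272 UMIs and was alike, with 2 Eomes, 10 Nes, 27 Mki67 and 1 Ptprc UMI. The other had 48927 UMIs and carried NK transcripts, 3 Ncr1, 3 Klrb1c and 70 Gzma UMIs, together with 7 of Nes. Both together held 19.0% of the NK UMIs of that library. No NK cell of a wtIDH1 library had more than 21386 UMIs. The main genotype results are therefore given with and without the barcodes over 30000 UMIs, a limit set after their values were seen.

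**Figure D1:**
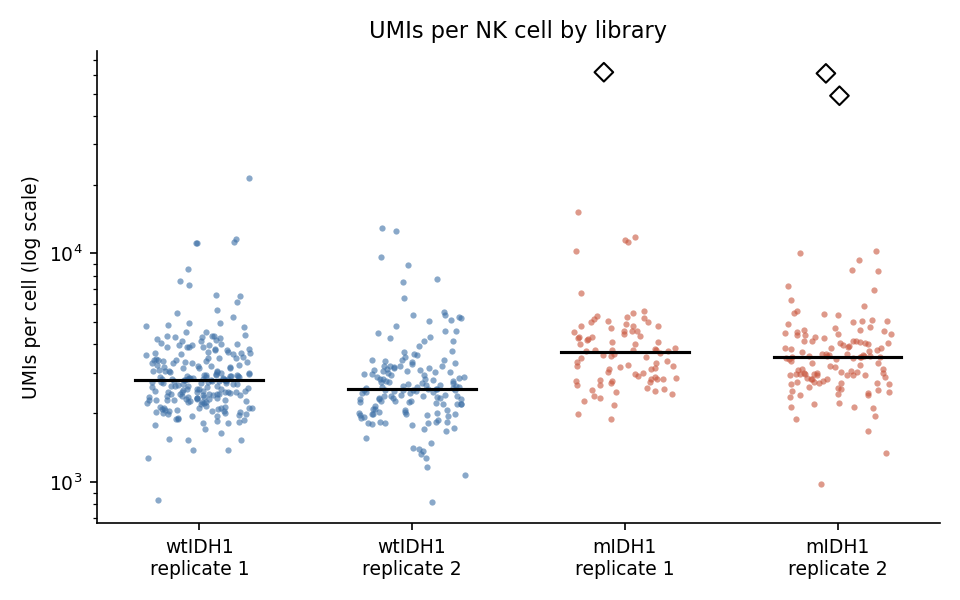
UMIs per NK cell (log scale) in each library; each point is a cell, the line is the median of the library, and open diamonds are the 3 barcodes over 30000 UMIs. The medians lie between 2565 and 3715 UMIs, and the diamonds, at 48927 to 61990, are all in mIDH1 libraries.

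Transcripts of other cells were found inside the NK class, at levels that differed between libraries. All 12 macrophage and monocyte genes of the list were found in the NK cells of wtIDH1 libraries, at a summed level of 1005 and 1234 CPM (UMIs of a gene per 1000000 UMIs of the class), against 450.1 and 467 CPM in mIDH1 libraries, where Adgre1 was at 0 in replicate 1 and Ms4a7 in both. In wtIDH1 most of this lay in few cells: 4 and 3 NK cells of wtIDH1 replicates 1 and 2 had 50 or more UMIs of the macrophage, monocyte and dendritic lists and held 64.9% and 63.5% of those UMIs, against 0 and 1 cell in mIDH1, a limit set after the values were seen. The median NK cell had 1, 1, 2 and 1. Without those cells the macrophage and monocyte level was 422 and 536 CPM in wtIDH1 and 450.1 and 372 CPM in mIDH1 libraries, with overlap. The dendritic cell list was at 443 and 278 CPM in wtIDH1 and at 54.5 and 62.1 CPM in mIDH1 libraries, or at 117, 58.04, 54.5 and 36.8 CPM without those cells, and its defining genes Flt3, Xcr1, Clec9a and Cd209a were at 0 in all 4. Neutrophil genes were at 56.8 and 71.2 CPM in wtIDH1 and 109 and 397 CPM in mIDH1 libraries. That list holds S100a8 and S100a9, genes of the rule, and without them it was at 49.8, 62.5, 19.0 and 106.9 CPM, with overlap, while the macrophage list without the C1q genes of the rule was at 969, 1175, 403 and 447 CPM. The tumour cell list was at 6.92 and 4.31 CPM in wtIDH1 and 28.4 and 99.99 CPM in mIDH1 libraries, and at 2.78 and 6.38 CPM in mIDH1 without the large barcodes. NK cells with 3 or more UMIs of the macrophage, monocyte and dendritic lists numbered 55 of 224, 39 of 154, 36 of 88 and 28 of 127. Whether free RNA, doublets or the cells themselves carried these transcripts was not tested. A stricter selection, set after seeing these values, left out those cells and the large barcodes and kept 169, 115, 52 and 99 NK cells.

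The gate drew a class that carried the NK programme beyond the genes of the rule. Of the 5 markers given for the class, Ncr1, Klrb1c and Eomes were part of the rule, and Prf1 and Gzma were not. Gzma, the granzyme A gene, was at 13844, 9550.2, 11067 and 12066 CPM, the levels being close in all 4 libraries. Prf1 was at 1786, 1367, 948 and 1239.5 CPM. In T cells of the same libraries Gzma was at 423 to 3096 CPM and Prf1 at 225 to 511 CPM, so no library overlapped with the NK cells for either gene. The median NK cell held 6, 5, 6 and 6 UMIs of the 4 rule genes.

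At the edge of the rule the picture was less clean. Cells with exactly 2 rule UMIs, just inside, numbered 23, 19, 8 and 10, and Gzma was found in 100%, 89.5%, 75% and 80% of them. Cells with 1 rule UMI, just outside, numbered 42, 18, 16 and 14, and Gzma was found in 57.1%, 66.7%, 12.5% and 42.9%. Among cells with no rule UMI that met the other limits, Gzma was found in 6.10% in wtIDH1 replicate 1 and 1.85% in mIDH1 replicate 2. A further 44, 30, 23 and 29 cells met the rule for NK genes but carried a Cd3 UMI and were left out.

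The rule genes themselves differed in how many cells they brought in. Klrb1c was found in 81.7%, 84.4%, 85.2% and 91.3% of NK cells and Ncr1 in 37.1%, 35.7%, 44.3% and 58.3%. Ncr1 was at 185, 175, 166 and 231 CPM, Klrb1c at 670.0, 709.6, 611 and 724 CPM, and Eomes at 365, 352, 348 and 184 CPM. Klra8, which encodes an activating receptor of the Ly49 family that recognises a viral protein, was at 1019, 932, 521 and 489.6 CPM, the lowest wtIDH1 library standing above the highest mIDH1 library. Without the large barcodes the mIDH1 levels were 611 and 600.2 CPM. Klra8 was at 0 in 34.8% and 46.1% of wtIDH1 NK cells and in 54.5% and 51.2% of mIDH1 NK cells, while cells that had it held a median of 4, 4, 4 and 3.5 UMIs. In 1 random draw of 1000 UMIs per cell it was found in 50.2% and 45.8% of wtIDH1 and in 31.8% and 30.2% of mIDH1 NK cells. Klra8 is a gene of the rule, so these values are a description, and members of the Klra family are near-identical in places, so that counting may split reads between them.

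NK cells were a smaller part of the mIDH1 libraries. They made up 7.14% (Wilson 95% interval 6.29 to 8.10) and 5.04% (4.32 to 5.87) of the cells in wtIDH1 replicates 1 and 2, and 2.34% (1.90 to 2.87) and 3.52% (2.96 to 4.17) in mIDH1 replicates 1 and 2. Both wtIDH1 libraries were above both mIDH1 libraries, with means of 6.09% ± 1.49 and 2.93% ± 0.835 (SD, n = 2), and the shares were 7.31%, 5.13%, 2.41% and 3.53% without barcodes over 30000 UMIs. The exact two-sided permutation test gave p = 0.3333, the smallest value that 2 against 2 libraries allow. The intervals cover counting error only.

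That order depended on which other cells were counted. Among cells that were not neutrophil-rich, the NK share was 7.30%, 5.25%, 3.04% and 6.49%, so that mIDH1 replicate 2 lay between the wtIDH1 libraries. Among NK and T cells together, the NK cells were 38.0%, 32.4%, 16.7% and 37.5%, again with overlap. When cells with over 5% mitochondrial UMIs were left out, the NK share was 4.03%, 2.83%, 2.27% and 3.83% and the groups overlapped. The median mitochondrial share of NK cells was 5.63% and 5.70% in wtIDH1 and 4.57% and 3.40% in mIDH1 libraries.

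**Figure D2:**
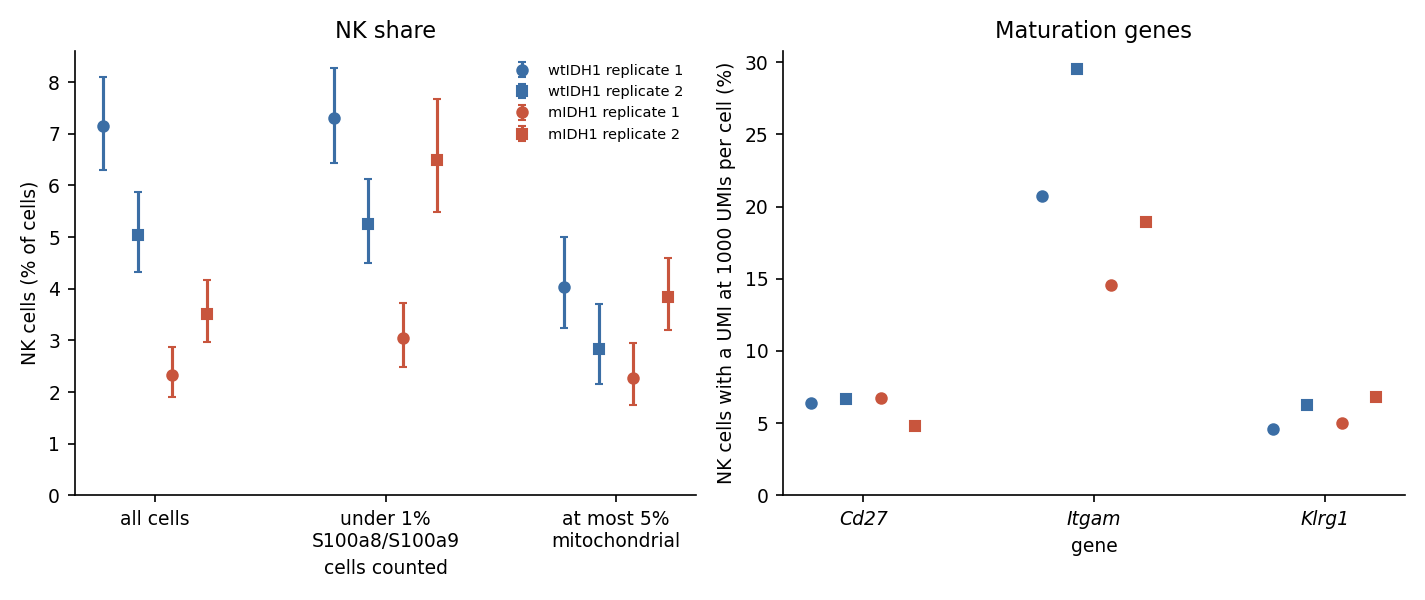
Left, NK cells as a percentage of the cells counted, for 3 choices of those cells; right, percentage of NK cells with a UMI of Cd27, Itgam or Klrg1 expected over all draws of 1000 UMIs per cell; points are libraries and bars on the left are Wilson 95% intervals. The wtIDH1 and mIDH1 libraries separate in the left group of all cells (5.04% and above against 3.52% and below) and for Itgam (20.7% and above against 19.0% and below), and overlap in the other groups shown.

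Maturation was read from Cd27, Itgam and Klrg1, after each cell was thinned to 1000 UMIs because detection rises with depth (1, 1, 0 and 1 shallower cells were left out). Cd27, a receptor of the TNF receptor family carried by less mature NK cells, was found in 5.83%, 6.54%, 9.09% and 7.14% of NK cells. Without thinning the shares were 17.4%, 16.9%, 28.4% and 16.5%. In this 1 random draw the groups did not overlap (6.18% ± 0.499 against 8.12% ± 1.38, SD, n = 2, exact permutation p = 0.3333). The share expected over all possible draws, computed after the draw was seen to matter, was 6.42%, 6.66%, 6.76% and 4.77%, so that the groups overlapped.

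Itgam, a subunit of the integrin that mature NK cells and myeloid cells carry, was found in 20.6%, 31.4%, 17.0% and 23.0% of thinned NK cells and in 41.1%, 53.2%, 40.9% and 41.7% without thinning. In the draw the groups overlapped (26.0% ± 7.60 against 20.03% ± 4.22, exact permutation p = 0.667). Over all draws the shares were 20.7% and 29.5% in wtIDH1 and 14.5% and 19.0% in mIDH1 libraries, without overlap, and they stayed apart without the large barcodes (14.7% and 19.2% in mIDH1), with 3 or more rule UMIs and at 2000 UMIs. The difference of -8.38 percentage points had an exact permutation p of 0.3333. Shares over all draws were not computed for the stricter selection that left out myeloid-rich cells. There, without thinning, cells with Itgam alone were 59 of 169, 57 of 115, 15 of 52 and 35 of 99, with overlap. The unthinned shares of all NK cells overlapped as well. Klrg1, an inhibitory receptor of fully mature NK cells, was found in 3.14%, 5.23%, 1.14% and 7.14% of thinned cells, and the mIDH1 libraries were the lowest and the highest (4.18% ± 1.48 against 4.14% ± 4.25, exact permutation p = 1). Over all draws it was 4.57%, 6.24%, 4.997% and 6.79%, with overlap. Its unthinned shares were 11.6%, 15.6%, 14.8% and 19.7%. With 2 libraries against 2, none of these tests could give a p below 0.3333.

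As background, Cd27 was found in 0% to 0.475% of thinned cells with 3 or more C1q UMIs, which should lack it, and Klrg1 in none of them, while Itgam, which those cells express, was found in 36.9% to 48.0%. Those cells had a median of 6178.5 to 6774 UMIs before thinning. In thinned T cells, Cd27 was found in 10.0% to 20.2%, Itgam in 0.312% to 1.92% and Klrg1 in 1.87% to 4.12%. Without thinning, 26, 16, 16 and 14 NK cells had Cd27 alone, 79, 72, 27 and 46 had Itgam alone, and 13, 10, 9 and 7 had both. The remaining 106, 56, 36 and 60 cells had neither, which at this depth does not show that the genes were silent.

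The Cd27 and the Itgam cells were distinct in the rest of their transcripts. UMIs were summed per library over the cells with Cd27 alone and over those with Itgam alone and compared within libraries by edgeR's quasi-likelihood test, with Benjamini-Hochberg adjustment over 2426 genes. Of these, 111 (4.58%) were higher in Cd27 cells and 52 (2.14%) were lower, at an adjusted p under 0.05, and 95 and 82 were with scaling by library totals. Of the 11 genes of the early maturation list, 7 passed the filter on low counts beside Cd27, and 6 of them were higher and none lower, with a median log2 difference of 1.95 against -0.01 over all genes. Of the 11 late genes, 7 were tested beside Itgam, none was higher and 5 were lower, with a median of -1.56. The lists were drawn up with earlier results of these data known.

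The granzyme C gene Gzmc had the largest named difference towards Cd27 cells (log2 7.57, adjusted p = 2.27e-06, edgeR). Of its 197 UMIs in Cd27 cells, 171 came from mIDH1 replicate 2, where 1 cell held 159. Most of the Gzmc UMIs on the Cd27 side thus came from 1 cell. The cells rich in Gzmc are described below. Ltb, a TNF family cytokine that organises lymphoid tissue, was at 141, 735, 203 and 203 CPM in Cd27 cells and at 20.4, 39.1, 0.00 and 35.1 CPM in Itgam cells. Every library was higher on the Cd27 side, and the log2 difference was 3.62 (SE 0.37, adjusted p = 2.38e-05, edgeR). Tcf7, the transcription factor TCF1 of early lymphocytes, was at 283, 287, 147 and 101 CPM against 45.0, 58.7, 95.6 and 64.3 CPM (log2 1.79, SE 0.34, adjusted p = 0.00245, edgeR). Xcl1, a chemokine that attracts cross-presenting dendritic cells, rose by 2.18 on the log2 scale, and the adhesion gene Emb by 2.01, Thy1 by 1.95 and Ctla2a by 1.38. Ccr2, a receptor for monocyte chemokines, rose by 0.80 (adjusted p = 0.00574, edgeR). Itga1, the integrin of tissue-resident cells, was at 121, 251, 215 and 14.5 CPM against 45.0, 78.2, 47.8 and 35.1 CPM (log2 1.51, adjusted p = 0.0228, edgeR), with mIDH1 replicate 2 in the other direction. In the stricter selection it was not tested, and wtIDH1 replicate 1 went in the other direction too. The levels there were 31.2, 142, 242 and 17.2 CPM against 51.2, 88.5, 59.4 and 43.2 CPM. Without wtIDH1 replicate 1, the calls of Tcf7, Itga1 and Ccr2 had adjusted p = 0.076, 0.0975 and 0.066, and without wtIDH1 replicate 2 those of Itga1 and Ccr2 had 0.226 and 0.0587.

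The Itgam cells carried more of the killing machinery and of the late factors. Zeb2, which drives terminal NK maturation, was at 182, 269, 113 and 29.0 CPM in Cd27 cells and at 797, 841, 459 and 310.0 CPM in Itgam cells, lower in Cd27 cells in every library (log2 -2.00, SE 0.22, adjusted p = 3.48e-05, edgeR). Prf1 was at 979, 574, 508 and 884 CPM against 1949.8, 1927, 1586 and 1784 CPM, without overlap (log2 -1.22, SE 0.15, adjusted p = 6.22e-05, edgeR). Gzma was at 11193, 3729, 5604 and 9026 CPM against 15537, 12171, 20192 and 16576 CPM (log2 -1.12, SE 0.17, adjusted p = 0.000295, edgeR). Gzmb fell by 1.11, the chemokine Ccl5 by 0.89 and Ccl4 by 1.29 in Cd27 cells. Klf2, a factor of lymphocyte recirculation, fell by 1.30, the chymase Cma1 by 1.92, the sialomucin Spn by 0.98, Irf8 by 0.65 and the inhibitory receptor Klra9 by 1.33. Without wtIDH1 replicate 1 the adjusted p was 0.0554 for Spn, 0.0614 for Ccl5 and 0.0545 for Klra9, and Spn missed the threshold also without either replicate 2. Tbx21 was at 131, 197, 79.1 and 86.9 CPM against 200.3, 347, 201 and 123 CPM, with an adjusted p of 0.13 by edgeR.

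Myeloid transcripts stood on the Itgam side as well. Lyz2, the lysozyme of macrophages and monocytes, was at 20.2, 17.9, 11.3 and 43.5 CPM in Cd27 cells and at 343, 621, 66.9 and 158 CPM in Itgam cells. Cd74, a chaperone of antigen presentation, was at 30.3, 0.00, 0.00 and 0.00 CPM against 793, 323, 38.2 and 123 CPM. In the stricter selection without large or myeloid-rich cells, neither gene had enough counts to be tested. That selection left out cells by such transcripts, so this outcome was partly fixed in advance. There 96 of 1398 genes (6.87%) were higher in Cd27 cells and 35 (2.5%) lower, the early list had 6 higher of 7 (Tcf7, Emb, Ltb, Thy1, Xcl1 and Ctla2a, median 1.78), and the late list had 4 lower of 6 (Zeb2, Cma1, Spn and Irf8, median -0.88). Prf1 was lower by -1.32 there (adjusted p = 3.01e-08, edgeR) and Gzma by -1.21. Ly6c2, in the late list, lost its call there (log2 -0.76, adjusted p = 0.14), and Tbx21 gained one (log2 -1.10, adjusted p = 0.0158).

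**Figure D3:**
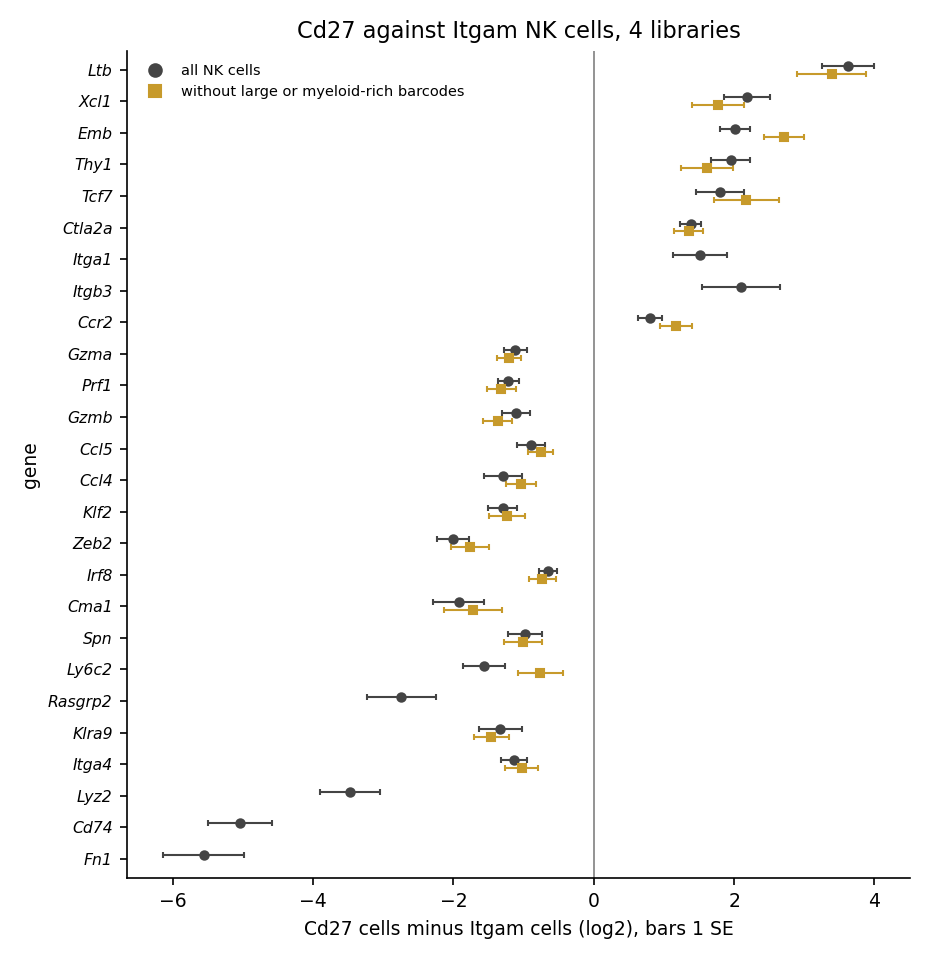
Log2 difference of Cd27 cells minus Itgam cells for the genes named, with bars of 1 SE, in all NK cells (circles) and without large or myeloid-rich barcodes (squares, absent where the gene was not tested). Among the genes shown, which leave out Gzmc, Ltb, at 3.62, lies farthest to the right. The myeloid genes Lyz2, Cd74 and Fn1 lie farthest to the left and have no square.

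A few NK cells held nearly all of the Gzmc transcripts. Gzmc encodes granzyme C, a granzyme that resting NK cells hardly express. It reached 5 or more UMIs in 14 cells, 4, 4, 2 and 4 by library, and these cells held 658 of the 685 Gzmc UMIs of the class. They were chosen after their values were seen and nothing about them was tested. The integrin gene Itga1 was found in 78.6% of the 14 cells and in 13.0% of the other 579, and Itgam in 0% against 45.4%. The chemokine receptor gene Cxcr6, which marks residency, was found in 21.4% against 0.864%, Inpp4b in 50% against 2.25% and Ltb in 64.3% against 14.3%. By library, Cxcr6 was found in 0, 2, 1 and 0 of the 14 cells and Inpp4b in 1, 4, 1 and 1. Itga1 was found in 4, 4, 1 and 2 and Ltb in 2, 4, 1 and 2. Eomes was found in 50% against 59.6%; as a gene of the rule it is given as a description. Their median depth was 4846 to 10943 UMIs by library against 2546 to 3658.5 in the other NK cells, and detection rises with depth.

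Against T cells of the same libraries the NK cells differed in 2116 of 9173 genes. T cells were cells with at least 2 Cd3 UMIs and no UMI of the 4 NK rule genes, under the same other limits, 365, 322, 439 and 212 by library. Their median depth was 4098, 3948.5, 5697 and 5390 UMIs. By edgeR's quasi-likelihood test within libraries, 915 genes (9.97%) were higher and 1201 (13.1%) lower in NK cells. Scaling by library totals gave 1133 higher and 897 lower, and without wtIDH1 replicate 1 there were 602 and 728. The genes of either rule were not counted. By this rule the T cells here leave out those that express one of the 4 NK genes.

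Several NK receptor genes were among those with the largest differences. Of 15 activating receptors and adaptors tested, 8 were higher and 4 lower, and of 18 inhibitory receptors and checkpoints 8 were higher and 8 lower. Klra4, an activating receptor of the Ly49 family, was at 1079.7, 1124, 692 and 610.3 CPM in NK cells and at most 0.914 CPM in T cells, which held 4 UMIs in all (log2 10.55, SE 0.25, adjusted p = 8.57e-09, edgeR). Klra9, an inhibitory one, was at 693, 699, 393 and 339.6 CPM against at most 4.26 CPM (log2 8.25, SE 0.36, adjusted p = 2.25e-07, edgeR). The lectin-like receptors Klrb1a, Klrb1f and Klra3 followed at log2 differences of 7.83, 6.25 and 5.83. The Klra and Klrb1 genes named are relatives of the rule genes Klra8 and Klrb1c, of which the T cells had to hold no UMI. How far the choice of cells set these differences was not tested. Tyrobp and Fcer1g, the adaptors that pass on signals of activating receptors, were higher by 4.20 and 3.62. Tyrobp was at 883, 949, 1158 and 1752 CPM in NK cells and at 35.2 to 75.8 CPM in T cells. Klrk1, the activating receptor NKG2D that sees stress ligands on tumour cells, was at 851, 763, 682 and 596 CPM against 223 to 360.2 CPM (log2 1.40, adjusted p = 6.32e-05, edgeR).

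The checkpoint receptors of activated T cells were on the other side. Pdcd1, which encodes PD-1, was at 0.00, 0.00, 21.3 and 0.00 CPM in NK cells, 9 UMIs in all, and at 249 to 312 CPM in T cells. Lag3 was at 29.1, 15.1, 21.3 and 6.90 CPM against 417 to 571 CPM (log2 -4.92, SE 0.21, adjusted p = 2.25e-07, edgeR). Havcr2 and Ctla4 were lower by -4.81 and -4.80. Cxcr6 was at 1.38, 21.6, 4.74 and 1.72 CPM against 344 to 502 CPM, and of the 13 genes tested in the list of type 1 innate lymphoid and tissue-resident cells 9 were lower and 1, Gzmc, was higher. Of 12 T cell genes 11 were lower, and Cd8a had 1 UMI in all NK cells against 5242 in T cells. NK cells had to hold no Cd3 UMI and T cells at least 2, so this outcome was partly fixed in advance.

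Among the effector genes, 7 of 17 cytotoxic genes were higher and 4 lower. Gzma was higher by 2.97 (SE 0.45, adjusted p = 0.00104, edgeR), Prf1 by 1.85 (SE 0.24, adjusted p = 0.000352) and Gzmb by 1.06 (SE 0.29, adjusted p = 0.0246). Gzmb lost its call without wtIDH1 replicate 1 or mIDH1 replicate 2 (adjusted p = 0.11 and 0.0653) and overlapped between the classes, at 2201, 1007, 1769 and 2696 CPM in NK cells and 862, 1053, 949 and 496 CPM in T cells. Nkg7, a granule protein of both lineages, was at 1368, 1210.0, 1585 and 2384 CPM against 935, 953, 1376 and 1969.5 CPM, higher in NK cells in each library, and passed the test only without the large barcodes (log2 0.24 and adjusted p = 0.121 with them, 0.41 and 0.00141 without). Cytokine genes were mostly lower, 8 of 15 against 2 higher. Ifng, the macrophage-activating interferon gamma, was at 223, 153, 154 and 116 CPM against 378, 359, 374 and 766 CPM (log2 -1.57, SE 0.27, adjusted p = 0.00232, edgeR), and Tnf was lower by -2.50. Ccl5, at 4056, 3343, 4719 and 11149 CPM against 532, 391, 1268 and 1401 CPM, was higher (log2 2.63, SE 0.19, adjusted p = 7.06e-06, edgeR).

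Late NK maturation genes were mostly higher and early ones mostly lower in NK than in T cells. Of 11 late genes 6 were higher and 1 lower, with a median log2 difference of 1.35, and of 11 early genes 1 was higher and 6 lower, with a median of -0.45, against -0.02 over all genes. S1pr5, the receptor by which mature NK cells leave tissue, was at 58.1, 58.2, 21.3 and 34.5 CPM against 0.00 to 2.28 CPM in T cells (log2 5.45, adjusted p = 9.1e-05, edgeR). Il7r, the interleukin 7 receptor of T cells and helper-like innate lymphocytes, was at 5.54, 15.1, 33.2 and 15.5 CPM against 270.4 to 359 CPM (log2 -4.45, adjusted p = 1.05e-06, edgeR). Il2rb, the receptor chain shared by interleukins 2 and 15, was higher by 0.92, and Il2ra, the chain of the high-affinity interleukin 2 receptor, lower by -4.91. Cell cycle genes were lower in NK cells, 14 of 18 with none higher and a median of -1.56. Cells with 2 or more UMIs of Mki67 and Top2a were 0%, 2.60%, 3.41% and 3.15% of NK cells and 17.0%, 20.8%, 22.1% and 13.7% of T cells, which were deeper. Of 24 hypoxia and glycolysis genes 16 were lower, with a median of -0.75.

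**Figure D4:**
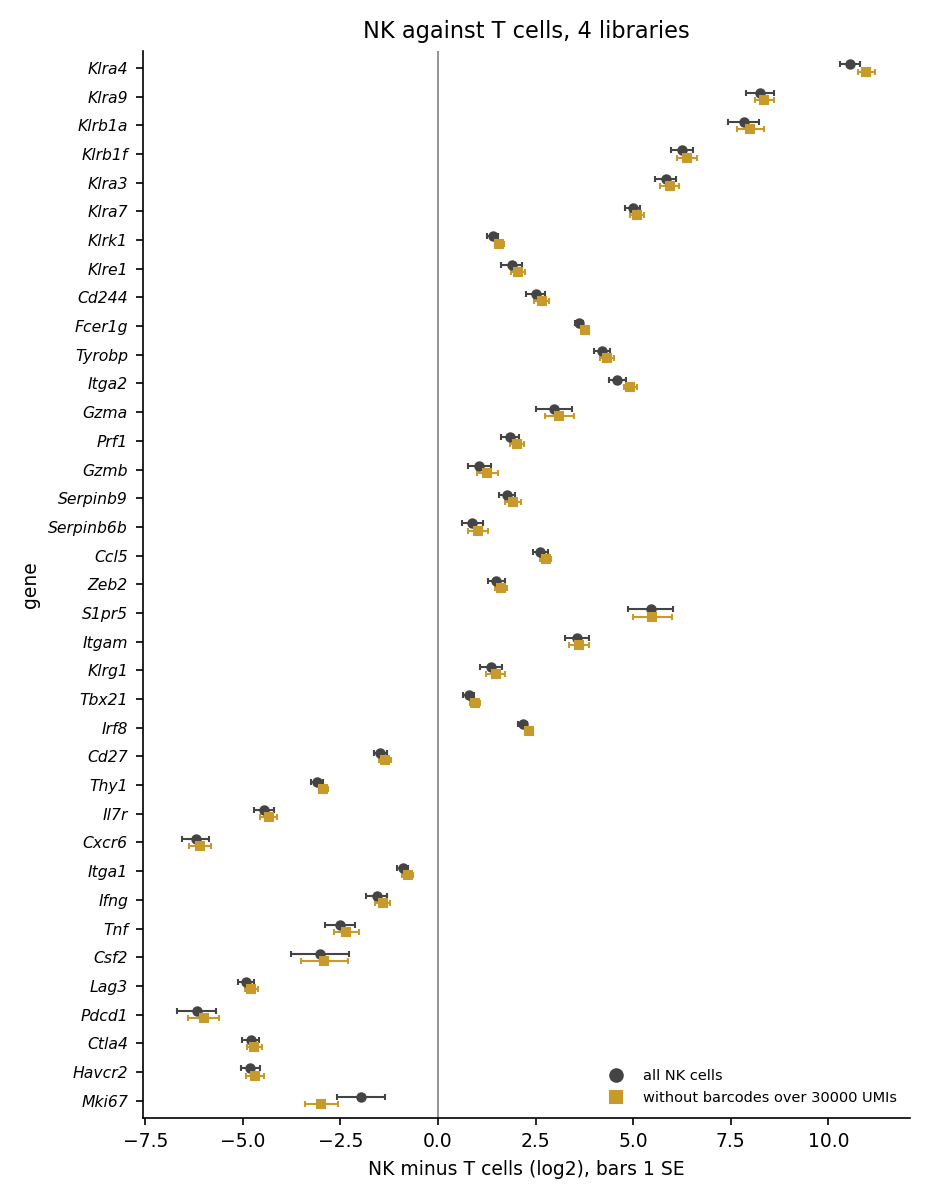
Log2 difference of NK minus T cells within libraries for the genes named, with bars of 1 SE, in all cells (circles) and without barcodes over 30000 UMIs in either class (squares). Receptors and effector genes lie to the right, up to 10.55 for Klra4, and checkpoint, residency and cytokine genes to the left. Circles and squares lie on the same side of 0 for each gene.

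Between genotypes, NK cells of mIDH1 tumours had less of the inhibitory receptor gene Klrc1, of the repressor gene Bach2 and of the immediate early genes Fosb, Dusp1 and Nr4a1 than NK cells of wtIDH1 tumours, and these 5 calls held without the 3 large barcodes and without any 1 library. When cells with any C1q, S100a8 or S100a9 UMI were left out, Klrc1, Bach2 and Nr4a1 missed the threshold (adjusted p = 0.123, 0.0804 and 0.0936). With each cell thinned to 1000 UMIs, Nr4a1 (log2 -0.93, adjusted p = 0.265) and Fosb (adjusted p = 0.083) did too, and at 5% mitochondrial UMIs Klrc1 and Nr4a1 did (adjusted p = 0.0697 and 0.0523). Fosb also missed it with 1 or more rule UMIs (adjusted p = 0.0734). Zeb2 and Klf2 were also lower and Ccl5, Tyrobp and Cxcr3 higher, with and without the large barcodes, but these 5 lost their calls without 1 or more of the libraries. In all NK cells 482 of 6758 genes (7.13%) were higher and 188 (2.78%) lower in mIDH1 by edgeR's quasi-likelihood test on the library sums. Without the large barcodes, 283 of 6250 genes (4.53%) were higher and 114 (1.82%) lower. In the stricter selection that also left out myeloid-rich cells, 241 of 5194 (4.64%) were higher and 55 (1.06%) lower. These shares over all genes are the background for the counts by gene list below. Of the 670 genes called in all NK cells, 293 (43.7%) were also called without the large barcodes, and 198 were called in all 3 selections, 162 of them higher and 36 lower. Where a gene is said not to overlap between genotypes, this describes its values. With 2 libraries against 2 it arises often without a difference, and the share over all genes is not given here. Log2 differences use TMM scaling. Scaling by library totals moved the median of all genes from -0.01 to -0.18 and turned the split to 408 higher and 471 lower, so directions near 0 depend on the scaling. The count of 670 was 273, 225 or 1521 without wtIDH1 replicate 1, wtIDH1 replicate 2 or mIDH1 replicate 1, 195 by DESeq2 (163 higher and 32 lower), and 42 without cells with any C1q, S100a8 or S100a9 UMI, which kept 194, 124, 52 and 43 cells. A library left alone in its group was assumed to vary like the others. In T cells, which share these libraries, 108 of 9407 genes (1.15%) were higher and 23 (0.244%) lower.

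Most UMIs of the genes with the largest differences, in the group where they were higher, lay in the cells described above. The 10 named as most higher in mIDH1, among them Krt18, Tm4sf1, Map1b, Cdkn2a and Hmmr, had 72.9% to 100% of their mIDH1 UMIs in the 3 large barcodes. The histone gene Hist1h2ae, at 72.9%, stayed called without those barcodes (log2 4.94, adjusted p = 5.52e-05, edgeR). Its levels were then 2.77 and 0 CPM in wtIDH1 and 75.0 and 31.9 CPM in mIDH1 libraries. The others had too few counts to be tested there. Krt18, a keratin, had 0, 0, 118 and 88 UMIs by library, of which 98.1% in mIDH1 lay in those barcodes. Idh1 itself had 5, 3, 49 and 14 UMIs in NK cells, and 90.5% of those in mIDH1 lay in the large barcodes. Without them its levels were 6.92, 6.47, 8.33 and 6.38 CPM, with overlap. The 10 most lower included Mpeg1, Tgfbi, H2-Aa, Cxcl16, H2-Eb1, Spi1, Ifi205, Cybb and H2-DMb1, genes of macrophages and antigen-presenting cells. Cells with 3 or more myeloid UMIs, the few cells with 50 or more among them, held 82.4% to 95.6% of their wtIDH1 UMIs, and in the selection without those cells none of the 10 had enough counts to be tested. That selection left out cells by their myeloid UMIs, so the loss of such genes was partly fixed in advance. With only the large barcodes left out, all 10 stayed called. Without wtIDH1 replicate 1, Cxcl16, H2-Eb1 and Ifi205 missed the threshold (adjusted p = 0.441, 0.0773 and 0.462), as did H2-DMb1 without wtIDH1 replicate 2 (adjusted p = 0.496) and Idh1 without mIDH1 replicate 1 (adjusted p = 0.0767).

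Gzma, Prf1, Cd27, Itgam and Klrg1 were not called between genotypes. Gzma differed by 0.17 (SE 0.26, adjusted p = 0.73, edgeR) and Prf1 by -0.34 (SE 0.24, adjusted p = 0.402), and without the large barcodes by 0.46 and -0.039 (adjusted p = 0.15 and 0.942). Cd27 was at 74.7, 69.0, 64.0 and 51.7 CPM (log2 -0.15, SE 0.29, adjusted p = 0.781, edgeR) and differed by 0.07 without the large barcodes. Itgam was at 234, 375, 123 and 189.6 CPM, both wtIDH1 libraries above both mIDH1 libraries (log2 -0.73, SE 0.28, adjusted p = 0.114), and differed by -0.45 (adjusted p = 0.337) without the large barcodes. It passed the test without mIDH1 replicate 2 (log2 -1.18), by library totals (adjusted p = 0.0175), without the filter (0.0265), with the replicate number as a block (0.0366) and with 1 or more rule UMIs (0.0311). Prf1 passed without the same library (log2 -0.65), and Gzma without mIDH1 replicate 1 (log2 0.33). Klrg1 was at 42.9, 62.5, 42.6 and 56.9 CPM, with overlap (log2 0.16, SE 0.34, adjusted p = 0.809; 0.47 and 0.466 without the large barcodes). Of 10 early genes tested, Cxcr3 was higher and Bach2 lower, with a median of -0.29 against -0.01 over all genes, and of 11 late genes 1, Zeb2, was lower, with a median of -0.64. Without the large barcodes these medians were -0.03 and -0.34 and the called genes were the same. Over all genes 7.13% were higher and 2.78% lower, so a count of 1 in lists this short says little about them.

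Cxcr3, the receptor for interferon-induced chemokines, was at 9.69, 10.8, 35.5 and 25.9 CPM, with no overlap (log2 1.73, SE 0.47, adjusted p = 0.0326, edgeR; 2.03 and 0.0093 without the large barcodes). Bach2, a repressor that restrains lymphocyte effector programmes, was at 173, 155, 61.6 and 27.6 CPM (log2 -1.77, SE 0.31, adjusted p = 0.00262; -1.50 and 0.00206 without). In T cells Bach2 differed by 0.06 (adjusted p = 0.928). Zeb2 was at 472, 533, 239 and 205 CPM (log2 -0.998, SE 0.20, adjusted p = 0.00657; -0.77 and 0.0124 without; -0.70 and 0.0546 in the stricter selection), and differed by -0.0024 in T cells (adjusted p = 0.998). Klf2 was at 604, 628, 213 and 284 CPM (log2 -1.10, SE 0.22, adjusted p = 0.00679; -0.80 and 0.0145 without), and differed by -0.30 in T cells (adjusted p = 0.59). The test of the difference between NK and T cells gave adjusted p = 0.0699 for Bach2, 0.0548 for Zeb2 and 0.0799 for Klf2, and 0.408, 0.667 and 0.966 without the large barcodes. Cxcr3 lost its call without any 1 of the 4 libraries (adjusted p = 0.112 to 0.313) and by DESeq2 (adjusted p = 0.664), Zeb2 without wtIDH1 replicate 1 or 2 (adjusted p = 0.0551 and 0.133) and Klf2 without wtIDH1 replicate 2 (adjusted p = 0.0738). Of 17 transcription factors 4 were lower (Zeb2, Gata3, Klf2 and Bach2) and none higher, with a median of -0.58. Gata3, a factor of type 2 and T lineage cells, was lower by -0.995 (adjusted p = 0.0153), but by -0.70 without the large barcodes (adjusted p = 0.0662) and with adjusted p = 0.175 and 0.0843 without wtIDH1 replicate 1 or 2, and in T cells by -1.004 (adjusted p = 0.0432).

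Among effector genes, 15 of the 17 cytotoxic list were tested. Fasl, the death ligand, and Ctsc, which activates granzymes, were lower and none was higher (median 0.17). Without the large barcodes Gzmb, Nkg7 and Srgn were higher and none was lower (median 0.38). Nkg7 was at 1368, 1210.0, 1585 and 2384 CPM, both mIDH1 libraries above both wtIDH1 libraries (log2 0.82, SE 0.25, adjusted p = 0.0502, edgeR; 1.12 and 0.000816 without the large barcodes). Gzmb was at 2201, 1007, 1769 and 2696 CPM, and wtIDH1 replicate 1 lay between the mIDH1 libraries (log2 0.67, SE 0.33, adjusted p = 0.215; 0.97 and 0.0231 without). In T cells Nkg7 differed by 1.11 (adjusted p = 0.0663) and Gzmb by -0.16 (adjusted p = 0.768). Fasl and Ctsc lost their calls without the large barcodes, at adjusted p = 0.212 and 0.0794, and without wtIDH1 replicate 2, at 0.156 and 0.292. Ccl5 was at 4056, 3343, 4719 and 11149 CPM, highest in mIDH1 replicate 2 (log2 1.32, SE 0.35, adjusted p = 0.0288; 1.62 and 0.000329 without), and rose in T cells as well, by 1.81 (adjusted p = 0.0309). Ccl5 lost its call in NK cells without wtIDH1 replicate 1 or 2 (adjusted p = 0.154 and 0.343) and by DESeq2 (adjusted p = 0.592), and Nkg7 gained one without mIDH1 replicate 1 or 2 (log2 1.17 and 0.39).

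Among receptors, 1 of 13 activating receptors and adaptors tested was called, near the 7.13% of all genes called higher. This was Tyrobp, at 883, 949, 1158 and 1752 CPM (log2 0.87, SE 0.24, adjusted p = 0.0364, edgeR; 1.17 and 0.000527 without the large barcodes). Its partner Fcer1g was at 1351, 1031, 1412 and 2102 CPM and passed only without the large barcodes (log2 0.76 and adjusted p = 0.0744 with them; 1.05 and 0.00204 without). Of 13 inhibitory receptors 3 were lower and none higher. Klrc1, which encodes the inhibitory NKG2A chain that reads nonclassical MHC, was at 336, 466, 159 and 110.3 CPM, without overlap (log2 -1.40, SE 0.23, adjusted p = 0.00214; -1.10 and 0.00194 without; -1.38 and 0.000756 in the stricter selection). In T cells it differed by -0.94 (adjusted p = 0.0613). Klra1 and Klra9, near-identical family members, were lower by -0.88 and -0.75 and lost their calls without the large barcodes, at adjusted p = 0.199 and 0.143. Tyrobp lost its call without either wtIDH1 library (adjusted p = 0.359 without replicate 1 and 0.338 without replicate 2) and by DESeq2 (adjusted p = 0.0645), while Klrc1 kept its call without any 1 library and missed the threshold at a limit of 5% mitochondrial UMIs (adjusted p = 0.0697). Klra1 and Klra9 lost theirs without wtIDH1 replicate 1 (adjusted p = 0.21 and 0.294) and without wtIDH1 replicate 2 (adjusted p = 0.241 and 0.27).

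Of 14 stress and immediate early genes 5 were lower and none higher, with a median of -0.42, and the same 5 were lower without the large barcodes. Junb was at 2133, 2344, 1054 and 819 CPM (log2 -1.09, SE 0.21, adjusted p = 0.00479, edgeR), Fos at 264, 181, 78.2 and 102 CPM, Fosb at 203, 192, 82.9 and 58.6 CPM, Dusp1 at 367, 339, 114 and 117 CPM, and Nr4a1, which is induced by receptor signals, at 114, 121, 19.0 and 37.9 CPM, each without overlap. Their log2 differences were -1.12 for Fos, -1.32 for Fosb, -1.42 for Dusp1 and -1.78 for Nr4a1. In T cells Nr4a1 was lower by -0.96 (adjusted p = 0.0485). Fos and Fosb differed there by -0.11 and -0.02, and the test of the difference between the classes gave adjusted p = 0.0427 and 0.0246, but 0.618 and 0.186 without the large barcodes. Junb lost its call without wtIDH1 replicate 1 or 2 (adjusted p = 0.0961 and 0.158) and Fos without wtIDH1 replicate 1 (adjusted p = 0.273), and by DESeq2 Fos, Fosb and Nr4a1 had adjusted p = 0.172, 0.0635 and 0.0775. These genes also answer to how tissue is dissociated, and the mitochondrial share above moved the same way. Their part in the result was not tested.

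Of 22 hypoxia and glycolysis genes 6 were higher and none lower, and 3 of 20 without the large barcodes. Eno1, a glycolytic enzyme, was at 167, 145, 343 and 388 CPM (log2 1.41, SE 0.22, adjusted p = 0.00146, edgeR; 1.14 and 0.000816 without), and higher in T cells by 1.27 (adjusted p = 0.0387). Gapdh had 49.7% of its mIDH1 UMIs in the large barcodes and was higher by 1.56 with them and 0.90 without. Of 14 cell cycle genes 9 were higher, with a median of 1.83, but without the large barcodes 1 of 9, Stmn1, was, with a median of 0.31. Mki67 had 2, 3, 98 and 48 UMIs, 69.2% of the mIDH1 UMIs in the large barcodes. Over all genes 7.13% were higher and 2.78% lower, and 4.53% and 1.82% without the large barcodes. Of 21 type I interferon genes 2 were higher and 3 lower, and without the large barcodes none of 20 was higher and 2 were lower. Slfn5, one of those lower in both selections, lost its call without wtIDH1 replicate 1 (adjusted p = 0.529), and Eno1 did without wtIDH1 replicate 2 (adjusted p = 0.0513).

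**Figure D5:**
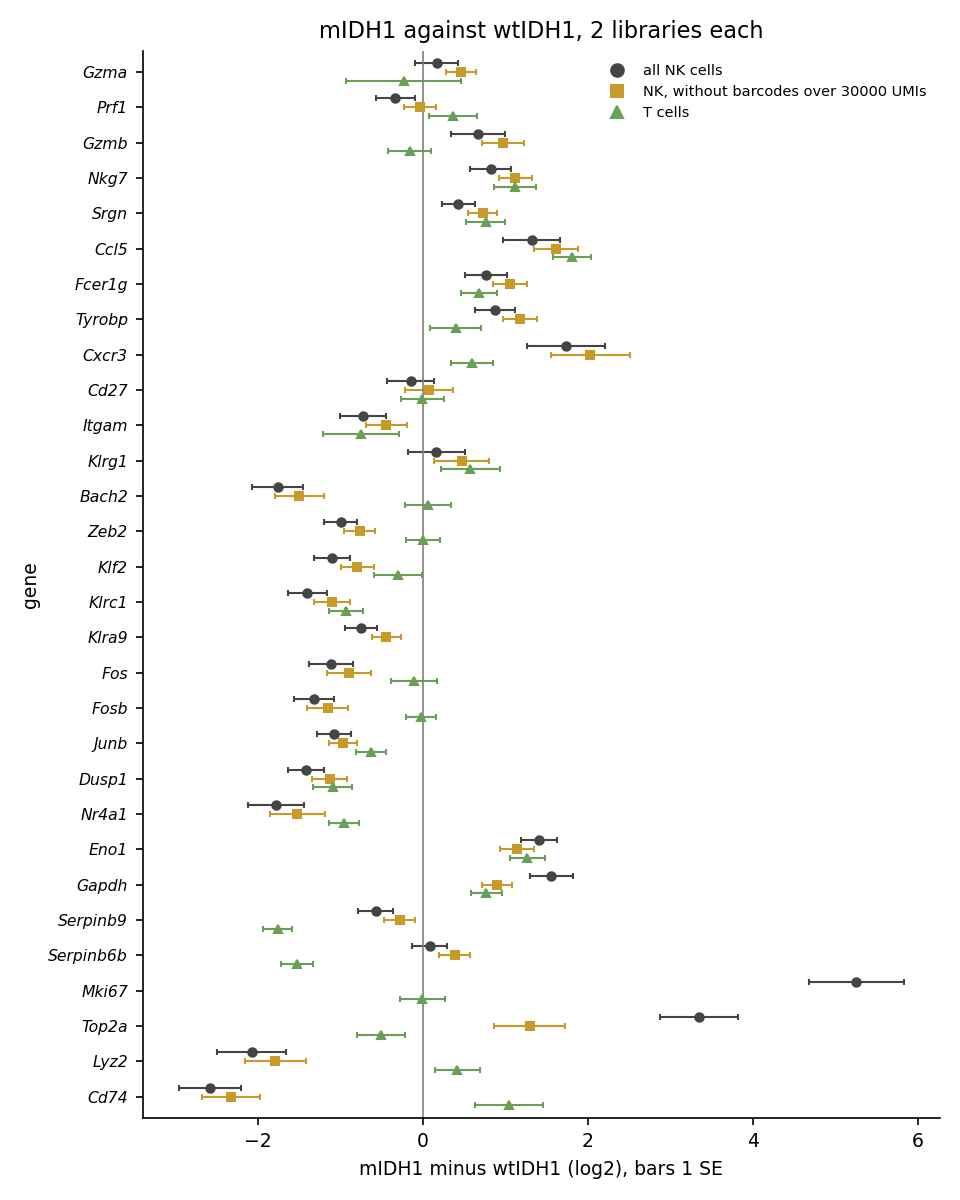
Log2 difference of mIDH1 minus wtIDH1 with bars of 1 SE for the genes named, in all NK cells (circles), in NK cells without barcodes over 30000 UMIs (squares) and in T cells (triangles); a missing symbol means that the gene was not tested. Mki67, at 5.25, has no square, Bach2 and Klf2 lie left of 0 in both NK selections, and Serpinb9 and Serpinb6b lie farthest left in T cells.

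Whether genotype differences were unlike in NK and T cells was tested with an interaction term. The mIDH1 minus wtIDH1 difference was called higher in NK than in T cells for 64 genes (0.698% of 9173). It was called lower for 20 (0.218%). The total of 84 was 35, 25, 292 and 263 without wtIDH1 replicate 1 or 2 or mIDH1 replicate 1 or 2. Of the 18 cell cycle genes 10 were among those with a higher difference in NK cells. Without the large barcodes the difference was higher in NK cells for 2 genes (0.0223% of 8967), Serpinb6b and Serpinb9. It was lower for 3 (0.0335%), Cd74, H2-Aa and H2-Ab1, and no cell cycle gene was called. Serpinb9, an inhibitor of granzyme B that protects killer cells from their own granules, was at 825, 606, 443 and 409 CPM in NK cells and at 315, 274, 74.3 and 70.3 CPM in T cells. It was lower in T cells of mIDH1 tumours (log2 -1.76, SE 0.18, adjusted p = 0.0243, edgeR), while the NK difference of -0.58 did not pass (adjusted p = 0.102). The interaction was 1.13 (adjusted p = 0.0129), and 1.48 (adjusted p = 0.00773) without the large barcodes, but had adjusted p = 0.0702 without wtIDH1 replicate 1 and 0.153 without wtIDH1 replicate 2. Serpinb6b, a relative of it, was at 435, 356, 348 and 388 CPM in NK cells, with overlap, and at 358, 341, 92.6 and 109 CPM in T cells, where it was lower by -1.53 (adjusted p = 0.0309). Its interaction was 1.54 (adjusted p = 0.00229), and 1.83 (adjusted p = 0.000637) without the large barcodes.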

How the data were processed

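Single-cell RNA libraries of 2 wtIDH1 and 2 mIDH1 samples were used. Per the labels' protocols, the authors counted UMIs with Cell Ranger 3.1 (STAR, mm10), and the deposited values are raw UMI counts per gene and barcode, in matrices whose headers name software version 3.0.0. The protocols describe a step that equalises depth, but the deposited counts differ in depth between libraries. All 31053 rows name a gene. The cell rule is given above. The members and all gene lists were chosen with earlier results of these data known.

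UMIs were summed per library over NK cells, and over T, Cd27 and Itgam cells. Sums were tested with edgeR 4.0.16 (R 4.3.3; TMM, filterByExpr, glmQLFit and glmQLFTest, Benjamini-Hochberg adjustment over all genes, threshold 0.05), without covariates between genotypes and with the library as a block within libraries. Genes of the rules were not counted among calls. Shares were compared by exact permutation tests in scipy 1.17.1 after thinning by 1 random draw, with Wilson 95% intervals, and also for the share expected over all draws (hypergeometric), added after seeing the data. The tests were checked on simulated counts that gave every gene the same variability. For NK against T and Cd27 against Itgam cells, both sides were simulated from the sums of 1 class. That check does not cover the large or myeloid-rich barcodes. No cell was removed as a doublet in the values reported, and leaving out the highest Scrublet scores was an alternative. Other alternatives were DESeq2 1.42.0, other size factors, no filter, stricter and looser gates and each library left out in turn. Replicate numbers were not taken to pair libraries.

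Between genotypes, the text names the rule, marker and maturation genes, up to 10 called genes per direction with the largest change, no overlap and a mean of at least 20 CPM, and up to 4 members of each list with the lowest p. Within libraries it names up to 10 per direction with at least 50 CPM in the higher class, and list members, and for the interaction up to 5 per direction with the lowest p. Gzmb, Srgn, Fcer1g, Fos and Stmn1 between genotypes, Serpinb9 and H2-Aa in the interaction, and the genes described in Gzmc-rich cells and large barcodes fall outside this rule and were chosen after their values were seen. Some genes that meet the rule are not reported here. Promoters are from RefSeq, GRCm38.p6.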

Additional observations from a re-analysis of the deposited data

Results flagged for a closer look

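For 10 genes the difference between mIDH1 and wtIDH1 was unlike in NK and in T cells by edgeR's interaction test, given here as the NK minus the T difference on the log2 scale. For the proliferation genes the mIDH1 minus wtIDH1 difference was higher in NK than in T cells. It was so by 5.20 for Mki67 (adjusted p = 5.48e-05), 6.17 for Cenpf, 3.68 for Top2a and 4.73 for Ube2c. The level of Mki67 itself was lower in NK cells in every library, at 2.77, 6.47, 232 and 82.7 CPM against 203, 285, 268 and 137 CPM. Between 69.2% and 93.1% of the NK UMIs of these genes in mIDH1 lay in the 3 barcodes over 30000 UMIs. Without those barcodes the adjusted p of the interaction test was 0.115 for Mki67, 0.848 for Cenpf, 0.115 for Top2a and 0.885 for Ube2c.

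Serpinb6b, a granzyme inhibitor gene, differed by 1.54 (adjusted p = 0.00229, and 0.000637 without the large barcodes). Its T cell level was 358 and 341 CPM in wtIDH1 and 92.6 and 109 CPM in mIDH1 libraries.

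The antigen presentation genes Cd74 and H2-Ab1 differed by -3.77 and -3.04, and by -3.21 (adjusted p = 0.000141) and -2.57 (adjusted p = 0.0434) without the large barcodes. Cd74 was at 282, 157, 19.0 and 43.1 CPM in NK cells and at 351, 132, 336 and 486 CPM in T cells, and 95.3% of its wtIDH1 UMIs in NK cells lay in cells with 3 or more myeloid UMIs. Those cells were chosen by macrophage, monocyte and dendritic transcripts, so a high share there follows in part from the choice.

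The chemokine genes Ccl4 and Ccl3 differed by -1.23 and -1.37 (adjusted p = 0.142 and 0.129 without the large barcodes, and 0.0756 for Ccl3 without wtIDH1 replicate 2). Ccl4 was at 1024, 964, 677 and 1105 CPM in NK cells and at 1015, 866, 1223 and 2415 CPM in T cells. Igkc, an antibody light chain gene of B cells, gave a fitted -10.42, which rests on 37, 0, 1 and 2 UMIs in NK cells and a level of 2079 CPM in the T cells of mIDH1 replicate 1 alone, and is not a measured fold. Without mIDH1 replicate 1 it was -3.67 (adjusted p = 0.0574).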

How the results depend on the processing

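The count of NK genes that differed by genotype, 670, was 195 by DESeq2, 1106 without the filter, 376 with 3 or more and 2427 with 1 or more rule UMIs, 42 without cells with a C1q, S100a8 or S100a9 UMI, 385 at 5% mitochondrial UMIs, 397 and 296 in the selections without large and without large or myeloid-rich barcodes, 210 with each cell thinned to 1000 UMIs and 325 without cells of 2 or more Mki67 and Top2a UMIs. These last 4 selections were chosen after seeing the data. Leaving out 1 library gave 225 to 1521. With a replicate block it was 662, but the libraries share only a number (correlation of deviations 0.0126 over 6765 genes). Library totals gave 879, and 511 (172 higher, 339 lower) without the large barcodes. NK against T cells gave 2116 genes, 1408 by DESeq2 and 1330 to 1773 with 1 library left out. The interaction gave 84, 25 by DESeq2, 5 without the large barcodes and 25 to 292 with 1 library left out. Cd27 against Itgam cells gave 163 genes and 110 to 177 in the alternatives run.

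Some small differences turned direction. Gzma was -0.0071 by library totals, -0.11 to 0.47 with 1 library left out and -0.45 with 1 or more rule UMIs. Cd27 was 0.64 at 5% mitochondrial UMIs, 0.071 and 0.20 in the 2 selections and 0.041 without cycling cells. Klrg1 was -0.024 by library totals, -0.17 to 0.44 with 1 library left out and -0.50 with 1 or more rule UMIs, and Top2a was -0.11 without cycling cells. The Cd27 share difference was -0.774 percentage points over all thinning draws and -0.315 without the large barcodes. That of Klrg1 was 0.492 over all draws, 3.63 without thinning, 1.80 at 2000 UMIs, 0.289 with 3 or more rule UMIs and 0.0199 without the large barcodes, and -3.05 to 2.96 with 1 library left out. That of Itgam was -11.3 to -0.597 with 1 library left out. The cause was not tested. Of 948 single-gene values between genotypes over 54 genes, 774 kept their direction and call, 128 lost the call, 34 gained one and 12 changed direction. With 88 to 224 NK cells a library, genes of few UMIs and shares near 5% are limited by depth.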

Other observations

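Ribosomal protein genes, a group formed after the values were seen, took 12.5% and 12.3% of the NK UMIs in wtIDH1 libraries and 17.2% and 21.2% in mIDH1 libraries. In T cells the shares were 13.8%, 14.2%, 20.5% and 26.4%. In NK cells 50 of 87 tested were higher in mIDH1 and none was lower, with a median log2 difference of 0.90 against -0.01 over all genes. Without the barcodes over 30000 UMIs the mIDH1 shares were 18.3% and 19.5%, and 62 of 86 were higher. By library totals 55 of 87 were higher. In T cells 31 of 91 were higher and none lower. Many of these genes have near-identical copies, so single members are uncertain. Of the 198 genes called in all 3 NK selections, 48 encoded ribosomal proteins, all of them higher.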
